A study of Mus musculus with 34 samples.

Results

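The splicing regulators described here are 50 of the 23366 gene symbols in an RNA-seq table of J1 mouse embryonic stem cells (mESCs). They were chosen by name alone, as symbols of the Srsf, Hnrnp (or Hnrp), Tra2, Ptbp, Mbnl, Celf, Rbfox and Khdrbs series. By family they were 11 SR proteins, 2 Tra2 proteins, 20 hnRNPs, 3 Ptbp, 3 Mbnl, 6 Celf, 2 Rbfox and 3 Khdrbs genes. J1 mESCs, an established line that depends on LIF when grown in serum, were cultured on gelatin in serum medium. In the serum/-LIF group LIF was withdrawn (2 libraries), and in the serum/-LIF + Royalactin group LIF was withdrawn and purified Royalactin, a royal jelly protein of the honey bee, was added at 0.5 mg/ml (2 libraries). Both groups therefore lacked LIF and came from 1 line, given as passage 40 in the sample labels. The study's text gives a lower passage for its RNA-seq cells. Elsewhere it counts passages within a culture condition, so the 2 numbers may not be counted from the same start. The time of harvest after LIF withdrawal is not given in the labels, and the study describes culture with Royalactin over multiple passages. The samples of the series hold no serum/+LIF RNA-seq library, and the ATAC-seq samples were not analysed here. Whether the libraries of a group came from separate cultures is not stated for each, so p-values measure the spread between these libraries.

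Introns are removed by the spliceosome, and the choice of exons is set by proteins that bind the pre-mRNA. SR proteins carry RNA recognition motifs and a tail rich in arginine and serine, bind mostly exonic enhancers and help the spliceosome to recognise a splice site. The hnRNPs coat nascent transcripts and often act in the opposite direction, as silencers of exons. Ptbp, Mbnl, Celf, Rbfox and Khdrbs proteins act on narrower sets of exons and differ strongly between tissues. In embryonic stem cells low Mbnl activity permits splice forms that differentiated cells lack. Many of these genes limit their own output through exons that send the transcript to decay, and a count per gene does not separate such transcripts from coding ones.

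The values are read counts per gene divided by 1 size factor per library (normalized counts). Reads on genes numbered from 14737796 to 17597818 per library, and from 7878527 to 15999458 without the ribosomal RNA precursor Rn45s. Rn45s took 46.6% and 21.6% of counted reads in the serum/-LIF libraries and 38.4% and 9.08% in the serum/-LIF + Royalactin libraries. Of 10 pluripotency markers, 10 had positive log2 fold changes with Royalactin. The 5 that passed the adjusted limma test described below were Sox2, Klf4, Esrrb, Zfp42 and Tfcp2l1. Of all tested genes 0.331% were called higher. Pou5f1 did not pass (limma adjusted p = 0.854, Benjamini-Hochberg). It stood at 4996 and 5407 normalized counts in serum/-LIF and 5140 and 7453 with Royalactin. Marker lists of other cells had summed levels of 2907 and 3207 in serum/-LIF against 2447 and 2847 with Royalactin (12 neural genes, none at 0 throughout), and 3370 and 3777 against 1260 and 1215 (10 mesenchymal genes, Pdgfrb and S100a4 at 0 throughout). They were 332 and 295 against 294 and 187 for 6 endoderm genes, with 0 called, and 1262 and 849 against 4070 and 2888 for 8 striated muscle genes, with Myod1, Tnnt2 and Ckm at 0 throughout. A single called gene carried much of 3 of these sums. Without Nes, called lower, the neural sum was 1418 and 2107 against 2113 and 2521, without Tagln, called lower, the mesenchymal sum was 1474 and 1252 against 1126 and 975, and without Ttn, called higher, the muscle sum was 151 and 111 against 112 and 96.4. The part of these cells in the values of the splicing regulators was not tested. In these bulk samples fewer cells of a type and less RNA per cell cannot be told apart.

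As a whole, the splicing regulators kept a near-constant place in the transcriptome of the 4 libraries. Their summed level was 151143 and 167194 normalized counts in serum/-LIF and 163430 and 151093 in serum/-LIF + Royalactin. This was 1.43%, 1.4%, 1.54% and 1.37% of the reads other than Rn45s, in the same order. The hnRNPs supplied most of it, between 86804 and 94957 normalized counts, and the SR proteins between 38024 and 47581. The summed ranges of the groups overlapped for all 50 genes together and for each family except Ptbp, whose sums were 9629 and 8866 in serum/-LIF and 7867 and 7372 with Royalactin.

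**Figure D1:**
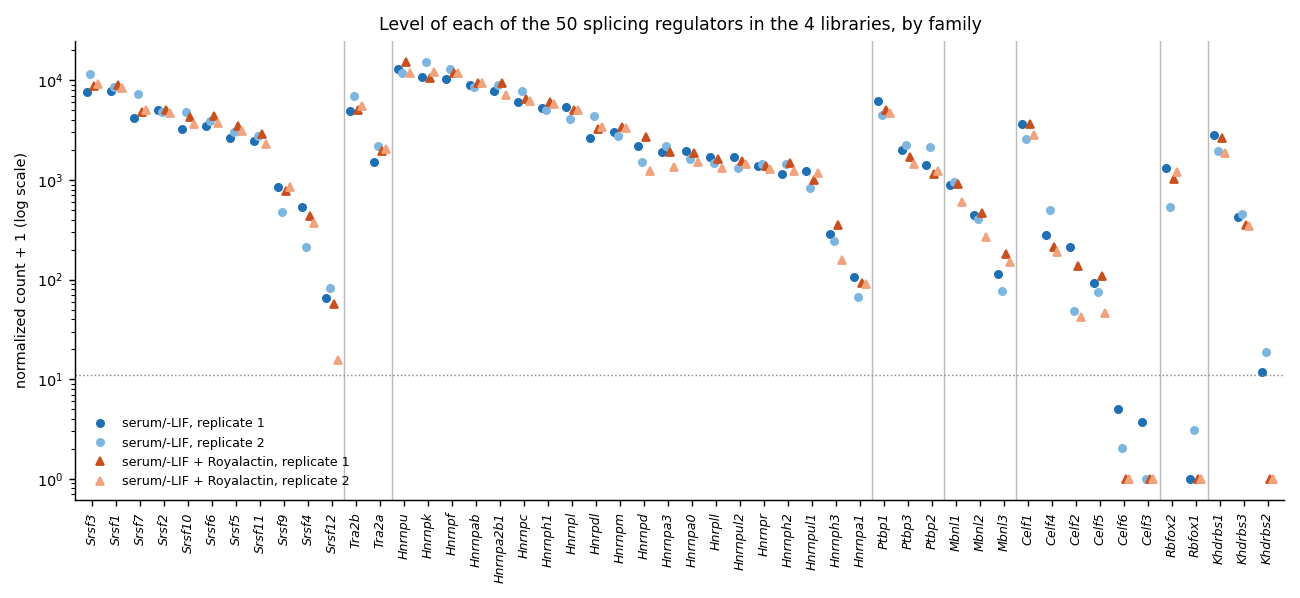
Normalized count + 1 (log axis) of each of the 50 splicing regulators in each library, grouped by family and ordered by mean within a family. Circles are the 2 serum/-LIF libraries and triangles the 2 serum/-LIF + Royalactin libraries, and the dotted line marks a normalized count of 10. Most SR proteins and hnRNPs lie above 1000 in all libraries, whereas Celf3, Celf6 and Rbfox1 lie near or at 0. Khdrbs2 lies above the dotted line in both serum/-LIF libraries and at 0 with Royalactin.

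A mean of at least 10 normalized counts was reached by 46 of the 50, and these entered a limma fit of log2(normalized count + 1) together with all other genes past that filter, 12993 in total. The 4 left out were Celf3, Celf6, Rbfox1 and Khdrbs2. None of the 46 (0 higher and 0 lower) was called at a limma adjusted p of 0.05 after Benjamini-Hochberg correction across the table, where 0.493% of all tested genes were called (0.331% higher and 0.162% lower with Royalactin). At an unadjusted p-value under 0.05 the number was 1 of 46 (lower with Royalactin), against 9.34% of all genes (4.76% higher and 4.58% lower), and with a fold change of at least 2 in addition it was 0, against 7.13%. These shares are over tested genes of all levels, and counts for genes with a mean of at least 1000 are given below. The lowest adjusted p-value among the 46 was 0.531, for Celf4. No count model was run on these values.

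The fold changes of the splicing regulators were small. Positive values were found for 19 genes and negative values for 27, with a median log2 fold change of -0.02, beside -0.01 for all tested genes. When the libraries were scaled to equal totals without Rn45s the split was 25 positive and 21 negative, so many of these signs are not firm. The median absolute log2 fold change was 0.13, against 0.40 for all tested genes. The median absolute difference between the replicates of these genes was 0.35 in serum/-LIF and 0.20 in serum/-LIF + Royalactin. For all tested genes these differences were 0.57 and 0.39. A difference between means of 2 libraries varies less than one between single libraries, so the 2 measures are not directly comparable. Only Srsf12 had a fold change of at least 2, 1 of 46, where 19.6% of all tested genes did. Genes of all levels enter that share, and counts at a higher level are given below. The 95% confidence interval of the log2 fold change stayed within -1 and 1 for 31 of the 46 genes, against 23.5% of all tested genes, so a 2-fold change lay outside the interval of those 31.

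The splicing regulators were also more abundant than most genes. The tested splicing regulators had a median mean level of 1921 normalized counts and all tested genes one of 243, and the median standard error of the log2 fold change was 0.31 and 0.44, respectively. Among the 34 splicing regulators with a mean of at least 1000, the interval stayed within 2-fold for 31 and the median absolute log2 fold change was 0.10. Among all 2369 tested genes at that level, the interval did so for 1494 and the median absolute log2 fold change was 0.23, with 16 genes called. The median standard error at that level was 0.31 for both sets. A fold change of at least 2 was found there for 0 of the 34 splicing regulators and for 59 of the 2369 genes. An unadjusted limma p under 0.05 was found for 0 and 168 of them, and both together for 0 and 57. The 2-fold shares over all tested genes therefore do not hold for genes at this level.

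**Figure D2:**
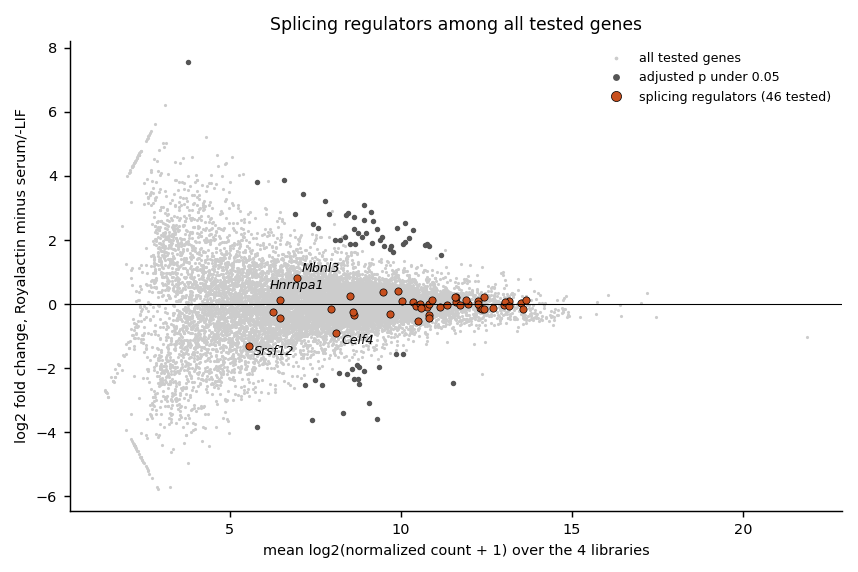
Log2 fold change (serum/-LIF + Royalactin minus serum/-LIF) against mean log2(normalized count + 1) for all tested genes (grey), genes with an adjusted p under 0.05 (dark) and the 46 tested splicing regulators (orange). The splicing regulators lie along the zero line at high expression, with Srsf12, Celf4 and Mbnl3 farthest from it.

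The 2 groups of libraries were fully separated for 11 of the 46 genes, 5 higher and 6 lower, where 38.6% of all tested genes separated in this way. The 5 higher ones were Srsf5, Hnrnpab, Hnrnph1, Hnrnpm and Mbnl3. The 6 lower ones were Srsf12, Hnrnpa3, Ptbp2, Ptbp3, Celf4 and Khdrbs3. For 8 of the 46 the difference between group means was also larger than both replicate differences, against 25.6% of all tested genes. Both counts lie below the share over all tested genes, and none of the 11 passed the adjusted test.

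**Figure D3:**
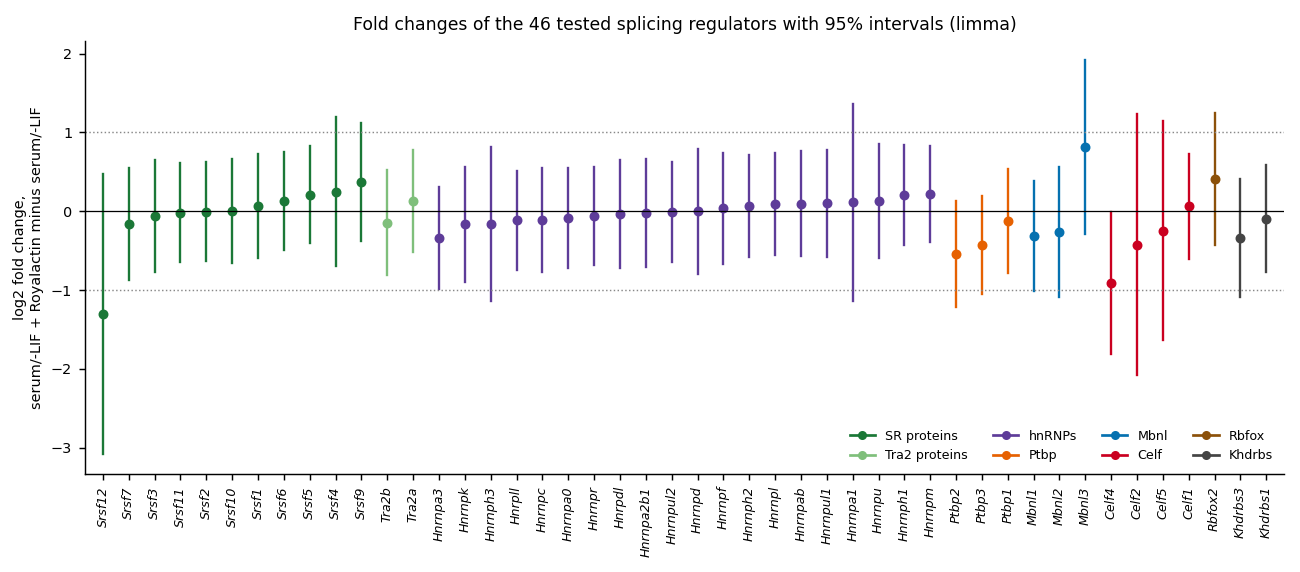
Log2 fold change (serum/-LIF + Royalactin minus serum/-LIF, points) with its 95% confidence interval from limma (lines) for each of the 46 tested splicing regulators, coloured by family. Dotted lines mark 2-fold changes. The interval of Celf4 ends just below 0 and those of the other 45 genes include 0.

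Among the SR proteins, 6 had positive and 5 negative log2 fold changes (8 and 3 under scaling to equal totals), with a median of 0.00, and 0 of 11 passed the adjusted test. Srsf7, the most abundant of them per kb of exon, stood at 4215 and 7286 normalized counts in serum/-LIF and 4832 and 5071 with Royalactin. Its Royalactin values lay between those of the serum/-LIF libraries. Srsf3, the smallest SR protein and an adaptor for mRNA export, showed the same arrangement, with 7699 and 11527 in serum/-LIF and 8851 and 9163 with Royalactin. For both genes the serum/-LIF replicates differed more than the group means.

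Srsf1, the founding member of the family, was nearly level at 7831 and 8669 normalized counts in serum/-LIF and 8901 and 8345 with Royalactin. Its log2 fold change of 0.06 had a 95% interval from -0.60 to 0.73. Srsf2, which like Srsf1 promotes exon inclusion, stood at 4998 and 4841 against 5096 and 4703. Its log2 fold change of -0.01 had an interval from -0.63 to 0.62. For both genes a 2-fold change lay outside the interval.

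Srsf5 was 2655 and 3052 in serum/-LIF and 3500 and 3103 with Royalactin, without overlap between groups. Its log2 fold change was 0.21 with a standard error of 0.29 (adjusted p = 0.871 by limma, Benjamini-Hochberg). The difference was smaller than this limma error, which also draws on the spread of other genes. Srsf6 overlapped between groups, with a log2 fold change of 0.13. Srsf10, which can act as a general repressor when dephosphorylated, and Srsf11 had log2 fold changes of 0.00 and -0.02.

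The weakly expressed SR proteins varied more. Srsf9 was 841 and 472 in serum/-LIF and 776 and 858 with Royalactin, and its log2 fold change of 0.37 was the largest positive one of the family. The second serum/-LIF library was the low one, and without it the value was -0.045. Srsf4 showed the same low value there, with 535 and 212 in serum/-LIF against 433 and 369. Srsf12, a repressor that antagonises other SR proteins, was 64.2 and 81.8 in serum/-LIF and 56.3 and 14.5 with Royalactin. Its log2 fold change of -1.30 had an interval from -3.08 to 0.47 (limma adjusted p = 0.68, Benjamini-Hochberg), and it rested on 48, 79, 56 and 21 reads in that order of libraries.

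Tra2a and Tra2b, SR-like proteins that bind GAA-rich exonic enhancers, had log2 fold changes of 0.13 and -0.15. Tra2b was 4873 and 6920 in serum/-LIF and 5012 and 5476 with Royalactin, and Tra2a was 1529 and 2217 against 1970 and 2053. Both were higher in the second serum/-LIF library than in the first. Their ratio, which does not depend on the scaling of a library, differed less between the serum/-LIF replicates than either gene did. The value of log2(Tra2a/Tra2b) was -1.67 and -1.64 in serum/-LIF and -1.35 and -1.42 with Royalactin. The groups did not overlap, with a difference of 0.28, but 2 against 2 libraries cannot give an exact permutation p below 0.33 (two-sided p = 0.33, 0.778 after adjustment over 7 ratios).

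The hnRNPs had small fold changes, with 9 positive and 11 negative log2 fold changes, a median of -0.01 and a range from -0.34 to 0.22 (13 positive and 7 negative under equal totals). For 18 of the 20 the 95% interval stayed within 2-fold, and 0 passed the adjusted test. Per kb of exon the most abundant were Hnrnpf and Hnrnpk. Hnrnpf, which binds runs of G, stood at 3655 and 4659 normalized counts per kb in serum/-LIF and 4212 and 4245 with Royalactin. Hnrnpk, a KH-domain protein that binds C-rich RNA, stood at 3591 and 5066 per kb against 3566 and 4071. These ranges overlapped, so the order of the 2 genes was not resolved. Hnrnpab followed at 2972 and 2886 per kb against 3122 and 3132, below all values of Hnrnpf and Hnrnpk.

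Hnrnpab, Hnrnph1 and Hnrnpm were the 3 hnRNPs with both Royalactin libraries above both serum/-LIF libraries. Hnrnpm, which binds GU-rich sites, was 2998 and 2777 in serum/-LIF and 3399 and 3332 with Royalactin, the largest positive log2 fold change of the family at 0.22. Its interval ran from -0.39 to 0.83 (limma adjusted p = 0.862, Benjamini-Hochberg). Hnrnph1, a relative of Hnrnpf, was 5317 and 5024 against 6115 and 5836, a log2 fold change of 0.21. Hnrnpab was 8927 and 8669 against 9379 and 9409, a log2 fold change of 0.09. All 3 had replicates closer together than the group means, with log2 differences between replicates of at most 0.11. All 3 fold changes were below their limma standard errors, which ran from 0.28 to 0.31. Those errors are moderated, that is, they also draw on the spread of other tested genes of similar level.

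The hnRNP A proteins, classical antagonists of SR proteins at splice sites, did not pass the adjusted test either. Hnrnpa2b1 was 7774 and 8993 normalized counts in serum/-LIF and 9488 and 7168 with Royalactin, a log2 fold change of -0.02. Hnrnpa0 had a log2 fold change of -0.09. Hnrnpa3 had the most negative value of all hnRNPs, with 1891 and 2172 against 1889 and 1361, a log2 fold change of -0.34 (adjusted p = 0.787, limma and Benjamini-Hochberg). Its first libraries of both groups were almost equal, and the difference lay in the second libraries.

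Hnrnpa1, usually among the most abundant hnRNPs, was listed at only 106 and 66.2 normalized counts in serum/-LIF and 91.5 and 89.5 with Royalactin. It ranked 41 of the 50 genes per kb of exon. The share of sequence also found at other places in the genome was recorded for each gene, and its part in the level of Hnrnpa1 was not tested. When the longest coding transcript of each gene was cut into 75-base stretches, the length of the reads, 91.4% of those of Hnrnpa1 and 95.9% of those of Hnrnpa3 also matched elsewhere in mm9 with up to 2 mismatches. The following stretches of coding exons are shown as examples, 1 found once and 1 found many times. The stretch of Hnrnpa1 (chr15:103073427-103073501, plus strand, mm9) was among the few of that gene that matched no other place. The stretch of Hnrnpa3 (chr2:75503126-75503200, plus strand, mm9) matched 31 other places, 14 of them without a mismatch.
Hnrnpa1, 0 other places: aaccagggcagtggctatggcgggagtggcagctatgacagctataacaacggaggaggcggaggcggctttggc
Hnrnpa3, 31 other places: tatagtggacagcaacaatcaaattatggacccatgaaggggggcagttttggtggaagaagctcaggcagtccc

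Over 50% of the stretches also matched elsewhere for 8 of the 50 genes, namely Hnrnpa3, Hnrnpa1, Hnrnpf (79.3%), Srsf5 (76%), Hnrnpk (62.4%), Hnrnpr (60%), Srsf3 (55.1%) and Tra2b (53.6%). For 26 genes no stretch did. Not far below that cut lay Ptbp1 (46.4%), Srsf10 (44.7%), Hnrnpc (42.7%) and Hnrnph2 (42.5%), and 15 genes in all had a share over 10%. The counts of the 8 genes, and their place in the order of levels, are uncertain. The same limit applies to Ptbp1, and so to the Ptbp sums and the ratio of Ptbp2 to Ptbp1, and to the other genes with such shares. The part of shared sequence in these values was not tested. Exons shared with other genes add to this for Hnrnph3, of whose exon bases 75.5% overlap exons of Rufy2 on the opposite strand, for Srsf4 (43.3%, Gm12992, opposite strand) and for Hnrnpab (26.9%, Agxt2l2, opposite strand). For Hnrnpm 24.8% of exon bases overlap exons of March2 on the same strand, which counting by strand would not separate. Whether counting used the strand is not given in the sources used here. Hnrnph3 was listed at 289 and 240 in serum/-LIF and 351 and 158 with Royalactin, far below Hnrnph1.

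The other hnRNPs had log2 fold changes close to zero. Hnrnpu, a scaffold protein of the nucleus, was 13067 and 11871 normalized counts in serum/-LIF and 15443 and 11984 with Royalactin, a log2 fold change of 0.13. Hnrnpc, which binds U-rich tracts, was 6074 and 7746 against 6453 and 6243, a log2 fold change of -0.11. Hnrnpd, a regulator of mRNA with AU-rich elements, was the least even between replicates, with 2168 and 1524 against 2686 and 1225, and its group means were almost equal. Hnrnpl, which binds CA repeats, and its paralogue Hnrpll, known for the splicing of Ptprc in lymphocytes, had log2 fold changes of 0.09 and -0.12. Hnrpdl, Hnrnpr, Hnrnph2, Hnrnpul1 and Hnrnpul2 lay between -0.06 and 0.10.

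The 3 Ptbp genes all had negative log2 fold changes, from -0.54 to -0.13, and none passed the adjusted test. Ptbp1 represses neuronal exons in most cell types and was the most abundant, at 6248 and 4500 normalized counts in serum/-LIF and 5021 and 4709 with Royalactin. Ptbp2, its neural paralogue, which Ptbp1 keeps low by promoting skipping of a Ptbp2 exon, was 1400 and 2128 against 1138 and 1233. The groups of Ptbp2 did not overlap, and its log2 fold change of -0.54 had an interval from -1.21 to 0.13 (limma adjusted p = 0.641, Benjamini-Hochberg). Ptbp3 was 1981 and 2238 against 1708 and 1430, also without overlap, with a log2 fold change of -0.43 and an interval from -1.05 to 0.19. The ratio log2(Ptbp2/Ptbp1) did not separate the groups, with -2.16 and -1.08 in serum/-LIF and -2.14 and -1.93 with Royalactin.

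Mbnl1 and Mbnl2, which repress splice forms typical of stem cells, were well detected, and Mbnl3 was the weakest of the 3. Mbnl1 was 885 and 947 normalized counts in serum/-LIF and 905 and 599 with Royalactin. Mbnl2 was 445 and 406 against 470 and 268. In both genes the second Royalactin library was the low one and the first resembled serum/-LIF, with log2 fold changes of -0.31 and -0.26.

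Mbnl3 had the largest positive log2 fold change of all tested splicing regulators. It was 112 and 75.6 normalized counts in serum/-LIF and 178 and 148 with Royalactin, from 84, 73, 177 and 215 reads. The groups did not overlap, and the log2 fold change of 0.81 had an interval from -0.29 to 1.91 (limma adjusted p = 0.68, Benjamini-Hochberg). The ratio log2(Mbnl3/Mbnl1) was -2.97 and -3.63 in serum/-LIF and -2.34 and -2.01 with Royalactin, a difference of 1.12 (exact permutation test, two-sided p = 0.33, the smallest possible, and 0.778 after adjustment over 7 ratios). This was the largest difference among the 7 ratios.

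**Figure D4:**
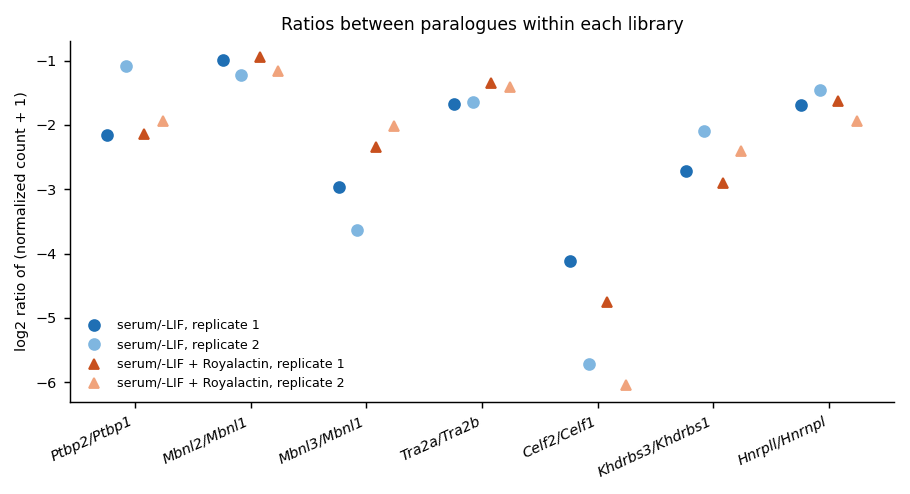
Log2 ratio of (normalized count + 1) between 7 pairs of paralogues in each library. Circles are serum/-LIF and triangles serum/-LIF + Royalactin. The groups separate for Mbnl3/Mbnl1 and Tra2a/Tra2b and overlap for the other 5 pairs.

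The Celf family spanned the widest range of levels. Celf1, the ubiquitous member, was 3674 and 2559 normalized counts in serum/-LIF and 3653 and 2799 with Royalactin, a log2 fold change of 0.06. Celf2 was 211 and 47.6 against 135 and 41.3, so that the first library exceeded the second in both groups by far more than the groups differed. Celf5, a neuronal member, was 92.3 and 74.5 against 107 and 45.4. Celf3 and Celf6, also neuronal, had at most 3 reads in any library, which is within the floor of 3 reads that a count of 0 allows, and no fold is given for them.

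Celf4, another neuronal member, was the 1 gene with an unadjusted p-value under 0.05. It was 278 and 502 normalized counts in serum/-LIF and 210 and 188 with Royalactin. Both Royalactin libraries were lower, by little against the first serum/-LIF library and by more against the second. The log2 fold change was -0.91, with a standard error of 0.42 and an interval from -1.81 to -0.01. Its adjusted p was 0.531 by limma (Benjamini-Hochberg). Over all tested genes 4.58% had an unadjusted p-value under 0.05 and a lower value with Royalactin. Omitting single libraries moved the log2 fold change of Celf4 between -1.33 and -0.48, and it was -0.48 without serum/-LIF replicate 2.

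Rbfox2, which binds GCAUG and is the Rbfox gene of stem cells, was 1311 and 533 normalized counts in serum/-LIF and 1029 and 1200 with Royalactin. Its log2 fold change of 0.41 had an interval from -0.43 to 1.25, and the Royalactin values lay between the serum/-LIF values. Without serum/-LIF replicate 1 it was 1.06, and without replicate 2 it was -0.24, so the sign differed between the serum/-LIF libraries used. Rbfox1, the neuronal and muscle paralogue, had 2 reads in the second serum/-LIF library and none in the other 3.

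Among the Khdrbs genes, Khdrbs1 (Sam68, a signal-responsive splicing regulator) was 2830 and 1950 normalized counts in serum/-LIF and 2626 and 1844 with Royalactin, a log2 fold change of -0.09. Khdrbs3 was tighter between replicates than most, at 428 and 457 against 352 and 346. Its groups did not overlap, and its log2 fold change of -0.34 had an interval from -1.09 to 0.41 (limma adjusted p = 0.819, Benjamini-Hochberg). Khdrbs2, a neuronal paralogue, had 8 and 17 reads in serum/-LIF and 0 in both Royalactin libraries. Against a floor of 3 reads per Royalactin library, the observed serum/-LIF mean was 5.57 times the mean floor. The lower serum/-LIF library alone was 3.55 times the floor of the first Royalactin library. The floor covers the counting error of the counts of 0 only. That of the 8 and 17 serum/-LIF reads is not included, so these folds are not lower bounds. With the filter on low values removed the limma adjusted p of Khdrbs2 was 0.44 (Benjamini-Hochberg).

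The differences between the serum/-LIF replicates were not spread evenly over the splicing regulators. Srsf4 and Rbfox2, with GC contents of 54.1% and 51.7% in their exons, were lower in the second library, at 0.397 and 0.407 times the first. Srsf7, Ptbp2 and Srsf3, with 40.8%, 40.6% and 39.7%, were higher, at 1.73, 1.52 and 1.5 times. Not all genes followed this order. The largest fall of the tested genes was that of Celf2 (43.7%), at 0.225 times, and the largest rise that of Celf4 (49.3%), at 1.8 times. Of the 24 tested genes with a GC content under 45%, 17 were higher in the second serum/-LIF library, with a median log2 difference of 0.19. Of the 10 genes with 50% or more, 1 was higher, with a median of -0.44.

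Across the 46 genes the difference between the serum/-LIF replicates had a Pearson correlation of -0.44 with GC content (Spearman -0.50), where all points share the same pair of libraries. For the serum/-LIF + Royalactin replicates it was 0.11 (Spearman 0.21), and for the difference between group means 0.10 (Spearman 0.20). Over all 12771 tested genes with an annotation the corresponding Pearson values were -0.26, 0.12 and 0.08. The part of GC content in the differences between groups was not tested beyond a correction that left 0 of 46 genes past the adjusted threshold.

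**Figure D5:**
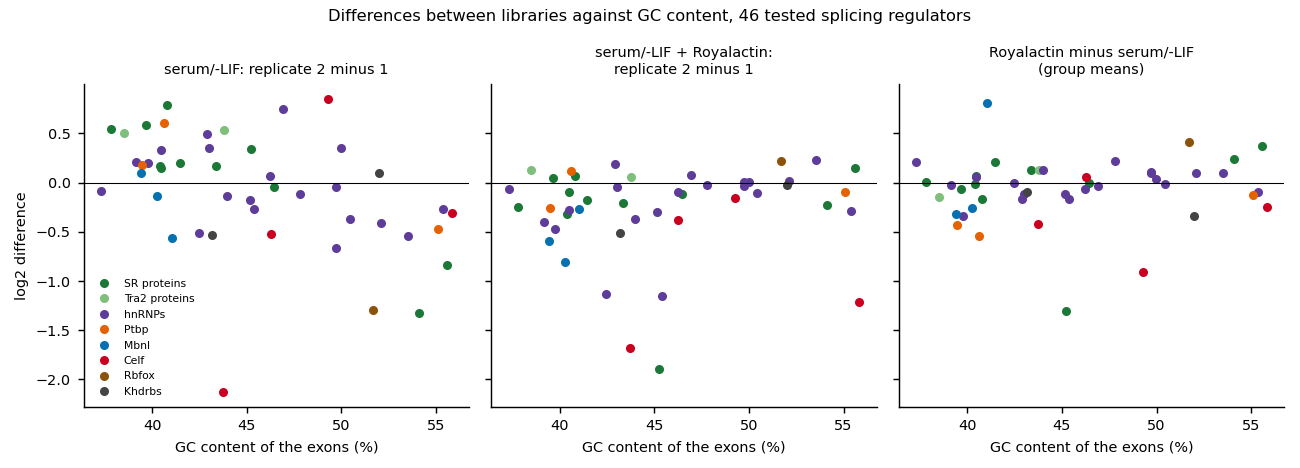
Log2 difference against GC content of the exons (%) for the 46 tested splicing regulators, coloured by family, between the serum/-LIF replicates (left), between the serum/-LIF + Royalactin replicates (middle) and between group means (right). Most genes with a GC content of 50% or more lie below zero in the left panel, and they lie on both sides of zero in the right panel.

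The wider splicing machinery was examined through 4 further lists. Of 60 tested core spliceosome proteins, 0 passed the adjusted test and 1 had an unadjusted p-value under 0.05, where 0.493% and 9.34% of all tested genes did. It was Dhx16, a helicase needed for catalytic activation of the spliceosome. Dhx16 was 864 and 779 normalized counts in serum/-LIF and 1689 and 2116 with Royalactin, and the groups did not overlap. Its log2 fold change was 1.2, with a standard error of 0.30. The adjusted p was 0.132 by limma (Benjamini-Hochberg), and 0.003 when the fit held a block for replicate number. With that block 391 of 12993 genes were called, although the replicate numbers did not pair the samples by the labels. After a correction for GC content and exon length the adjusted p of Dhx16 was 0.018 in limma (Benjamini-Hochberg), where 273 of 12771 genes were called. The most negative value of the list was that of Prpf38a, -0.61, with 873 and 1900 in serum/-LIF and 787 and 904 with Royalactin.

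In the core spliceosome list 35 genes had positive and 25 negative log2 fold changes, with a median of 0.13 beside -0.01 for all tested genes. The groups did not overlap for 16 of the 60 genes, 16 higher and 0 lower with Royalactin, where 19.7% of all tested genes were higher and 18.9% lower without overlap. Sf3b1, the branch-site protein of the U2 particle, was 8615 and 8616 in serum/-LIF and 11170 and 10639 with Royalactin, a log2 fold change of 0.34 (adjusted p = 0.796, limma and Benjamini-Hochberg). Sf3b1 was picked as an example after its values were seen.

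Kinases, import receptors and other partners of SR proteins formed the next list. Of its 28 tested genes 0 passed the adjusted limma test and 0 an unadjusted p-value of 0.05 (0.493% and 9.34% of all tested genes), with a median log2 fold change of 0.00 and a range from -0.49 (Scaf4) to 0.43 (Tnpo3). Tnpo3, the import receptor that carries phosphorylated SR proteins into the nucleus, was 2443 and 2061 normalized counts in serum/-LIF and 3026 and 3024 with Royalactin, without overlap (limma adjusted p = 0.697, Benjamini-Hochberg). Srpk3, the muscle SR kinase, was at 0 in all libraries.

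Among 46 other tested splicing regulators 0 passed the adjusted limma test and 0 an unadjusted p-value of 0.05 (0.493% and 9.34% of all tested genes), with a median log2 fold change of -0.10. Rbm3, a cold-inducible RNA-binding protein, was 6315 and 13148 normalized counts in serum/-LIF and 5479 and 6254 with Royalactin, a log2 fold change of -0.64. Its adjusted p was 0.641 by limma (Benjamini-Hochberg). It was 0.0104 in limma when values corrected for GC content and length were fitted with a block for replicate number. That fit called 808 of 12771 genes. The largest positive and negative values were those of the neuronal genes Elavl4 (1.97) and Rbfox3 (-1.39), which rested on 19, 3, 67 and 34 reads and on 21, 2, 12 and 0 reads. Both genes overlapped between the groups. Of 14 nonsense-mediated decay factors, which degrade the unproductive transcripts of SR proteins and hnRNPs, 0 passed the adjusted limma test and 0 an unadjusted p-value of 0.05 (0.493% and 9.34% of all tested genes). Their median log2 fold change was 0.13, with Upf3b highest at 0.59 and Magoh lowest at -0.60.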

How the data were processed

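RNA-seq libraries (ribosomal RNA depleted, single reads of 75 bases) were aligned by the authors to mm9 with TopHat and counted per gene with HTSeq-count. The values the authors deposited are a signal proportional to reads, being counts divided by 1 DESeq size factor per library. The annotation and strand setting of the counting are not given in the sources used here. All values were whole multiples of 1 step per library (tolerance 0.01), from which the read numbers were taken. In serum/-LIF + Royalactin replicate 1 the step of 1.01 could not be told from 1 automatically, and no count model was used.

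Genes with a mean of at least 10 were fitted by limma 3.58.1 (R 4.3.3) on log2 values after adding 1 (two-sided, trend of the variance, Benjamini-Hochberg over all tested genes). Its standard errors, intervals and p-values combine a gene's own spread with that of other tested genes of similar level. Fold changes on the log2(normalized count + 1) scale understate those of low genes. Ratios were compared with an exact permutation test over libraries. The 2 shared replicate numbers did not pair the samples by the labels. Exon lengths and GC content came from GENCODE for mm9, matched for 94.3% of symbols and all 50 genes. Transcript stretches (75 bases, every 15) were mapped with minimap2 2.31-r1302. Intervals and floors cover counting error or the spread of these libraries only.

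Named genes were those with an unadjusted p under 0.05, the most abundant per kb, the most positive and the most negative of each family, and the paralogue pairs. In other lists they were the extremes, and further genes were named after their values were seen. The splicing regulators and lists were chosen with earlier results of these data known. The steps were tested on simulated data. Alternatives were other pseudocounts, filters and scalings, no trend, a replicate block, a GC and length correction (lowess, span 0.3) and each library left out. A further sequence stretch is not reported here.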

Additional observations from a re-analysis of the deposited data

How the results depend on the processing

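The number of splicing regulators with a limma adjusted p under 0.05, 0 of 46, was 0 under all alternatives that kept the 4 libraries. These included the replicate block and the replicate block with a correction for GC content and exon length. The lowest adjusted p of any splicing regulator was 0.0631, for Celf4 with both the block and the correction. Without the trend 0 of all tested genes were called, so that fit could give no other number. Fits with 1 library left out are not counted here, because 1 group then has 1 sample. With an unadjusted p under 0.05 and a 2-fold change the number was 0 as reported and 1 with all genes above 0 (Khdrbs2, not tested otherwise). In the latter limma fit 8.37% of all genes had an unadjusted p under 0.05. Log2 fold changes of Celf4 and Rbfox2 were -1.33 and 1.06 without serum/-LIF replicate 1. At an unadjusted p under 0.05 alone, 5 splicing regulators passed without that library, against 19.2% of all genes.

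The background of called genes, 64 as reported, fell to 32 (pseudocount 0.1) and to 34 (all genes above 0), and was 99 at a mean of at least 50, 0 without the trend (1135 at an unadjusted p under 0.05), 391 with the replicate block, 273 after the GC and length correction and 808 with both. With any 1 library left out it was 0, with 428 to 2496 genes at an unadjusted p under 0.05. For these counts the cause was not tested. Among core spliceosome proteins 1 gene (Dhx16) was called with the block, with the correction and with both. Among other splicing regulators 1 (Rbm3) was called with both. The Mbnl, Celf and Rbfox medians moved most: with each library left out they ran from -0.612 to 0.144, from -0.921 to 0.306 and from -0.238 to 1.058. Over all genes above 0 the Celf and Rbfox medians were -0.665 and -0.200. With all libraries kept, 7 of the 46 splicing regulators changed sign under at least 1 alternative, all with a reported log2 fold change of at most 0.09 in size. Equal totals without Rn45s turned 6 of them (Hnrnpa2b1, Hnrnpd, Hnrnpul2, Hnrpdl, Srsf11 and Srsf2), TMM 1 (Hnrnpd) and the GC and length correction 5 with or without the block (Hnrnpa2b1, Hnrnpd, Srsf11, Srsf2 and Hnrnpl, the last to -0.020). With single libraries left out, the log2 fold change included both signs for 13 of the 21 genes chosen by the naming rule. It ran from -0.558 to 0.232 for Srsf7, -0.045 to 0.788 for Srsf9, -0.401 to 0.104 for Tra2b, -0.141 to 0.396 for Tra2a, -0.140 to 0.210 for Hnrnpf, -0.112 to 0.298 for Hnrnpl, -0.265 to 0.029 for Hnrpll and -0.362 to 0.112 for Ptbp1. It ran from -0.200 to 0.321 for Celf1, -1.486 to 0.641 for Celf2, -0.665 to 0.144 for Mbnl2, -0.238 to 1.058 for Rbfox2 and -0.363 to 0.174 for Khdrbs1. The deviations of same-numbered libraries had a Pearson correlation of 0.0851 across genes. Where 1 library is left out, its group has 1 sample, which is assumed to vary like the other group.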
